A study of Mus musculus with 16 samples.

Results

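The mouse embryo library labelled E10.5 medial nasal prominence was compared with the 3 libraries of E10.5 neural epithelium, 4 of the 16 RNA-seq libraries in the series. They were picked by the name that heads each value column, 1 library against 3. The comparison itself was proposed because earlier results had shown ventral forebrain genes, and no facial mesenchyme genes, in the library labelled medial nasal prominence, so those features are a description here. The series profiled small regions of CD1 embryos at the embryonic stages E8.5, E9.5 and E10.5 that contribute to the face. All 4 libraries were CD1 and E10.5. Their tissues were labelled medial nasal prominence, lateral prominence neural epithelium, central neural epithelium and dorsal control neural epithelium. No treatment or mutation is labelled, and the number and age spread of embryos behind a library were not stated. Each region had 1 library, so no difference below has a replicate error, a test or a p-value. The labels state more than 40000000 reads, as 50-base single-end reads. The depth of each library is unknown.

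A value in the files is a ratio of a gene in 1 library to the median of that gene over the 16 libraries. It is reported here as a level, how many times it exceeds the smallest value that gene takes in any of the 16 libraries. A level of 1.0 shared by several libraries is the floor to which low values appear to have been raised, and is called the floor below. Levels compare libraries for 1 gene and cannot be compared between genes. A gene counted as higher when the library labelled medial nasal prominence was at least 2-fold above each of the 3 others and had a level of at least 5. It counted as lower when it was at least 2-fold below each of the 3, each of them at a level of at least 5. Folds were taken after removal of the median log2 difference of each pair, which was 0.43 against lateral prominence, 0.55 against the library titled central and 0.35 against the library titled dorsal control. A fold against a library at the floor is a lower limit and is written "at least".

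The names of 2 of the neural epithelium libraries did not match between sources. The library titled central neural epithelium had a value column headed E10.5 DCNE, and the library titled dorsal control had one headed E10.5 CNE. Their genes differed as well. Pax6 and Emx2, which mark dorsal telencephalon, stood at levels of 66.6 and 14.4 in the library titled central and both at the floor in the library titled dorsal control. Nkx2-1, which marks ventral forebrain, stood at 3.91 in the former and 101 in the latter. Both libraries are therefore named by title only. Counts against all 3 libraries do not depend on which is which.

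The ventral telencephalon forms the ganglionic eminences, swellings of the forebrain wall that produce GABAergic neurons, the inhibitory neurons that use the transmitter GABA. Nkx2-1 specifies the medial ganglionic eminence and the preoptic area and is also expressed in the hypothalamus. Dlx genes act across the eminences, and Lhx6 and Lhx8 act downstream of Nkx2-1. Pax6, Emx2 and Neurog2 work on the dorsal side, in the future cortex. Several of these genes also pattern the face: Dlx genes, Lhx6 and Lhx8 are expressed in the mesenchyme of the pharyngeal arches.

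The label was checked first. The facial mesenchyme list held 31 measured genes, and 29 of them were at the floor in the library labelled medial nasal prominence, Alx1, Alx4, Pax3, Prrx1, Msx1, Twist1 and Col1a1 among them. The other 2 were Pdgfra at 1.02 and Snai2 at 1.40. In the neural epithelium libraries 30, 27 and 27 of the 31 were at the floor, and over all genes 4771 of 15876 were so in the library labelled medial nasal prominence. The mean log2 level of the list, in which 0 is the floor, was 0.02 here, 2.19 in the library labelled lateral nasal prominence and 2.32 in E9.5 cranial mesenchyme, the highest of the 16. All 19 measured genes of the surface epithelium list were at the floor as well. The olfactory placode list had a mean log2 level of 0.34, the lowest of the 16 libraries, against 3.22 in the olfactory pit. Defining genes of the labelled tissue were thus at or near the floor, and the library is called the library labelled medial nasal prominence throughout. In whole-tissue RNA, fewer cells of a type and less RNA per cell cannot be told apart.

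Nkx2-1, Olig2, Dlx6 and Islr2, proposed as its markers, were followed through all 16 libraries; by the rule 1 of the 4, Islr2, was higher than in all 3 neural epithelium libraries. Nkx2-1 was at 49.9 in it and at 101 in the library titled dorsal control. Next came E8.5 floor plate at 11.7, then the library titled central at 3.91, and the other 12 libraries lay between 1.0 and 2.38. Nkx2-1 was therefore high in 1 neural epithelium library and low in the other 2, and with the shift removed it was 2.58-fold lower than in the library titled dorsal control. Olig2, a transcription factor of ventral progenitors, was at 28.3 in the library labelled medial nasal prominence, 26.2 in the library titled dorsal control, 7.53 in the library titled central, 6.11 in lateral prominence and 3.99 in the olfactory pit. It was at the floor in the remaining 11. The 2 highest libraries differed by less than the 2-fold used for counting.

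Dlx6 had its highest level, 27.3, in the library labelled medial nasal prominence. Its next levels were 19.2 in the E9.5 mandibular arch, 15.7 in lateral prominence neural epithelium, 15.2 in E9.5 epidermal ectoderm, 9.13 in the library titled dorsal control, 8.17 in the olfactory pit, 5.86 in the E9.5 maxillary arch and 3.71 in the E10.5 mandibular arch. The 8 other libraries, the library titled central among them, were at the floor. Dlx6 thus did not separate brain from arch and was less than 2-fold above lateral prominence. Islr2, a membrane protein of growing axons, behaved otherwise. Its level was 11.2 in the library labelled medial nasal prominence, 1.44 in the library titled central, 1.40 in lateral prominence and 1.0 in all other libraries, and it was counted as higher by a fold of 5.31.

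**Figure D1:**
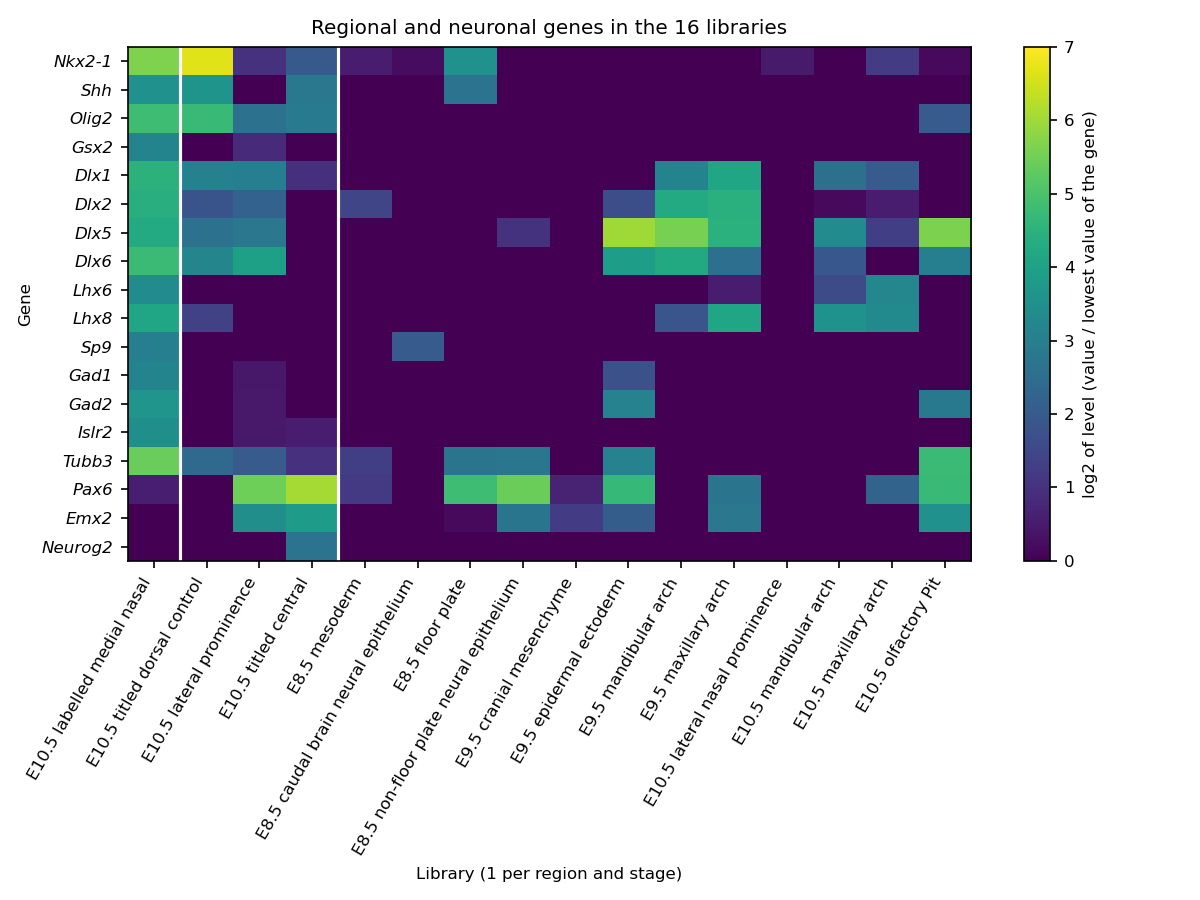
Heat map of 18 genes (rows) in the 16 libraries (columns); colour is the log2 of the level, which compares libraries within a gene and not genes with each other. White lines set apart the library labelled medial nasal prominence, on the left, and the 3 E10.5 neural epithelium libraries. The Dlx, Lhx and Gad genes are above the floor in the first column together with Nkx2-1 at 49.9, while Pax6 there is at 1.51 and Emx2 is at the floor.

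By the rule, 288 of the 1654 genes at a level of at least 5 in the library labelled medial nasal prominence were higher than in all 3 neural epithelium libraries (17.4%). Of the 241 genes at that level in all 3 neural epithelium libraries, 41 were lower (17%). The count of higher genes rested most on the library titled dorsal control: without it 576 genes were higher and 93 lower. Without lateral prominence the counts were 341 and 66, and without the library titled central 329 and 54. Among the 288, 110 had their highest level of all 16 libraries in the library labelled medial nasal prominence, and 12 were at the floor in all 3 neural epithelium libraries.

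The ventral telencephalon list gave 7 higher rows and 0 lower of 22 measured rows, which are 21 genes. In the library labelled medial nasal prominence 14 of the rows reached a level of 5, and 3 did so in all 3 neural epithelium libraries. The share over all genes was 17.4% for higher and 17% for lower. Lhx6, needed for interneurons of the medial ganglionic eminence, was at 10.4 there and at the floor in all 3 neural epithelium libraries, a fold of at least 7.09. Sp9, a zinc finger factor of the eminences, was at 8.19 and at the floor in the same 3, at least 5.61-fold. Lhx8, which acts in cholinergic neurons of the basal forebrain, was at 17.3, with the library titled dorsal control at 2.56 and the other 2 at the floor, a 5.30-fold difference from the nearest. These LIM homeodomain and Sp genes separated the library from all 3 at once.

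Gsx2, a progenitor factor of the lateral eminence, was at 8.91 in the library labelled medial nasal prominence, 1.78 in lateral prominence and the floor in the other 2, a fold of 3.71. Dlx2 was at 21.2, against 4.63 in lateral prominence, 1.0 in the library titled central and 3.54 in the library titled dorsal control, a fold of 3.39. Dlx5 read 19.4, 6.80, 1.0 and 6.16 in the same order, a fold of 2.11. Dlx1, at 22.7, was 2.08-fold above the nearest, with 8.07 in lateral prominence, 1.91 in the library titled central and 8.36 in the library titled dorsal control. The 4 counted homeobox genes of progenitors were thus above the floor in lateral prominence and, for the 3 Dlx genes, in the library titled dorsal control at lower levels.

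Isl1, a factor of striatal neurons, was at 6.2 in the library labelled medial nasal prominence, 1.30 in lateral prominence, 1.0 in the library titled central and 6.98 in the library titled dorsal control, and so was shared with the library titled dorsal control. Ebf1, on 2 rows, and Nkx6-2 were at the floor in the library labelled medial nasal prominence. The values of Isl1 and of other genes outside the naming rule were chosen for mention after they had been seen.

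Promoters are shown for Lhx6, Sp9 and Lhx8, the ventral telencephalon genes with the largest folds, and for Islr2. Islr2 had a match to the motifs searched and was the only neuron list gene among those with a promoter found. The sequences are from RefSeq (GRCm38.p6), which is not the mm9 build of the files, and each is the 250 bases before an annotated start, 5′ to 3′ on the strand of the gene. Promoters were found for 11 of 13 genes looked up, and for Lhx6 and Islr2 a start with a match was chosen. Capitals mark matches, on either strand, to CAAGTG, the core bound by NKX2 factors, or to the homeodomain cores TAATTA and TAATTG. Lhx6 (chr2:36104061-36104310, minus strand, 1 of its 3 starts), Lhx8 (chr3:154330561-154330810, minus strand), Sp9 (chr2:73271676-73271925, plus strand) and Islr2 (chr9:58202535-58202784, minus strand, 1 of its 3 starts) read:
Lhx6: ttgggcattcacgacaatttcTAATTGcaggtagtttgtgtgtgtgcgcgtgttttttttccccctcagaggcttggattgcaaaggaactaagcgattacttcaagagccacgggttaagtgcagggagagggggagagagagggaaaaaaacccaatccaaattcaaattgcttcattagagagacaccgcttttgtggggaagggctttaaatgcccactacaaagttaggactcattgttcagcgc
Lhx8: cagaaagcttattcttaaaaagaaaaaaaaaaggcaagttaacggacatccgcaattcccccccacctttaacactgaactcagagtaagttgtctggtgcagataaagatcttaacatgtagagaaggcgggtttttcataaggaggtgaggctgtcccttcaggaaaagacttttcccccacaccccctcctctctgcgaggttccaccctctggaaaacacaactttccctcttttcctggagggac
Sp9: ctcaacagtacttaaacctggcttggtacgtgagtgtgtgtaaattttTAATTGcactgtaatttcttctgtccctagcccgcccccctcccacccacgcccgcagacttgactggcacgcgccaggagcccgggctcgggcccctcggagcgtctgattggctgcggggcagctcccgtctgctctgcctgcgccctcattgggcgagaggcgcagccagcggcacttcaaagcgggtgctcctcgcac
Islr2: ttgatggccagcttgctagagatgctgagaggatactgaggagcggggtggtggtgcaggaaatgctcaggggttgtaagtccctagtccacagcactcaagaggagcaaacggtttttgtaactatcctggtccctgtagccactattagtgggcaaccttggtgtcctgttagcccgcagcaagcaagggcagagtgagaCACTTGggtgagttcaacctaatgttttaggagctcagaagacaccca

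CAAGTG was in a promoter of 1 of the 11 genes, Islr2, and in 11.6% of all 32851 promoters of the table. TAATTG was in those of 2 genes, Lhx6 and Sp9, and in 7.17% of all. TAATTA was in 0 of the 11 and in 4.84% of all. These counts are by gene, over the 15 promoters of the 11 genes, and the shares are by promoter. Counts and shares are therefore not in the same unit. Those of Dlx1, Dlx2, Gad1, Gad2, Gsx2, Nkx2-1 and Olig2, not shown, held none of the 3. A match is a description of letters and not a site, and the absence of one says nothing of a factor.

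The mean log2 level of the ventral telencephalon list was 2.80 in the library labelled medial nasal prominence, the highest of the 16. It was 1.71 in the library titled dorsal control, 1.31 in lateral prominence and 0.94 in the library titled central. Over all 15876 genes these means were 1.01, 0.76, 0.63 and 0.59. The median log2 difference of the list, shift removed, was 0.71 against lateral prominence, 1.27 against the library titled central and 0.21 against the library titled dorsal control, and over all genes it was -0.31, -0.38 and -0.31. A gene at the floor in both libraries of a pair takes a log2 difference equal to the shift with its sign turned, so these medians also move with the number of genes at the floor.

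Some GABAergic and general neuronal genes were higher. Gad2 and Gad1, the enzymes that make GABA, had levels of 12.4 and 8.85, respectively, in the library labelled medial nasal prominence. In lateral prominence they were at 1.40 and 1.37, and in the other 2 both were at the floor, so that their folds were 6.57 and 4.78. They were 2 of the 8 measured genes of the GABA neuron list, whose 3 genes at a level of 5 or more also included Zeb2. The share of higher genes over all genes was 17.4%, and 3 genes are few to set against it. Zeb2, a factor of migrating interneurons expressed in many tissues, was at 32.0 against 24.6, 26.4 and 22.6. The list had a mean log2 level of 1.94, against 0.70 in lateral prominence, 0.82 in the library titled central and 0.67 in the library titled dorsal control. Its median log2 differences were 0.42, -0.19 and 0.50 in that order, so that mean and median differ in sign against the library titled central.

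Of 54 measured genes of the neuron list, 9 were higher and 0 lower; 30 reached a level of 5 here and 12 in all 3 neural epithelium libraries, and the share over all genes was 17.4% for higher and 17% for lower. Tubb3, a tubulin of newborn neurons, was at 42.4 in the library labelled medial nasal prominence, 4.02 in lateral prominence, 2.01 in the library titled central and 5.27 in the library titled dorsal control, a fold of 6.32. Islr2 followed with the values given above. Myt1, a zinc finger factor of neurogenesis, was at 18.4 against 3.13, 3.98 and 4.74 in the same order, 3.04-fold. Nsg2, a vesicle protein of neurons, was at 5.41 against 1.0, 1.45 and 1.15, 2.56-fold. In these genes the 3 neural epithelium libraries were all low.

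Celf3, an RNA-binding protein of neurons, was at 25.8 against 2.39, 3.88 and 8.35, a fold of 2.43. Elavl3, another, was at 12.3 against 2.92, 1.67 and 4.28, a fold of 2.26. Crmp1, Stmn4 and Dcx completed the 9, with folds of 2.22, 2.17 and 2.06. The list was not uniform: Elavl4 was highest in the library titled central, at 23.3 against 16.3, and Nefm was at 6.35 in the library labelled medial nasal prominence against 10.3 to 13.9 in lateral prominence and the library titled central. Plxna2, a semaphorin receptor, was the 1 gene of 41 in the axon guidance list to be counted, at 8.01 against 2.48, 2.34 and 1.30, a fold of 2.34.

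**Figure D2:**
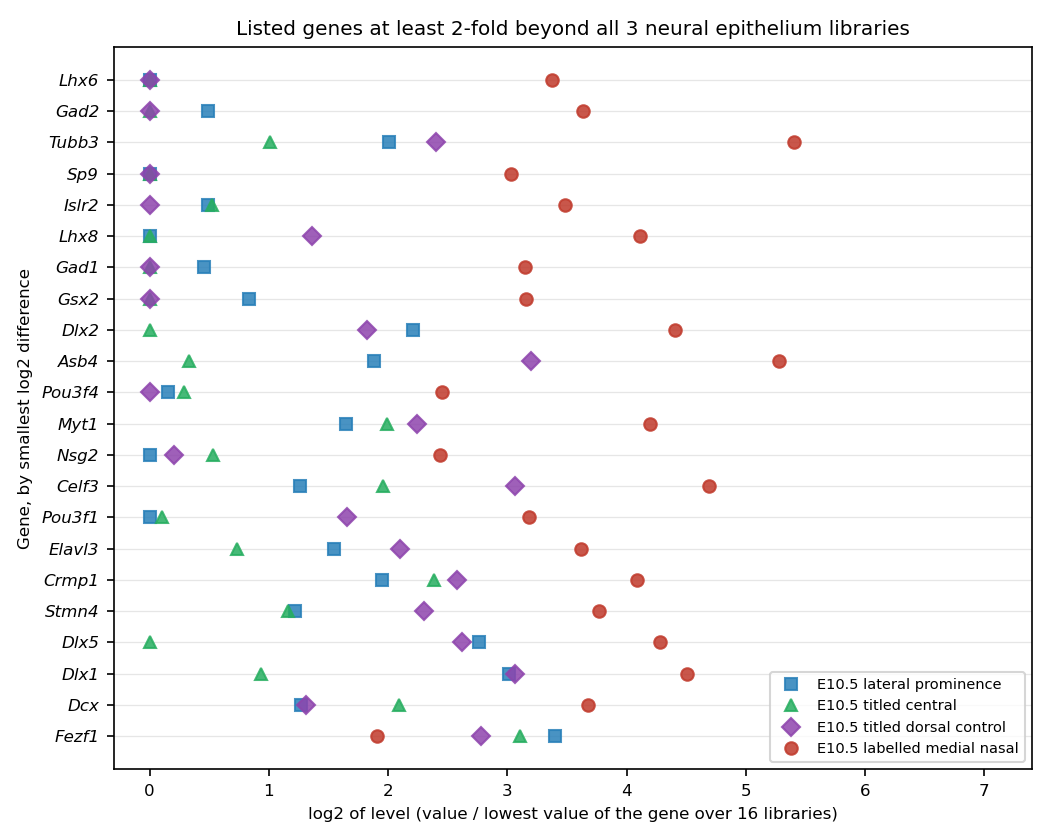
Levels, on a log2 axis, of 22 listed forebrain and neuron genes counted as higher or lower, ordered by the smallest log2 difference from the 3 neural epithelium libraries (shift removed). Each marker is 1 library. In 21 genes the library labelled medial nasal prominence lies to the right of all 3, and for Fezf1, at 3.75, it lies to the left.

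Progenitor, Notch and hedgehog genes gave no counted gene. Of 22 measured neural progenitor genes 15 reached a level of 5 here and 7 in all 3 neural epithelium libraries. Of these 0 were higher or lower, where the share over all genes was 17.4% and 17%. Nes, an intermediate filament of neural progenitors, was at 43.2 in the library labelled medial nasal prominence, 14.9 in lateral prominence, 19.2 in the library titled central and 24.4 in the library titled dorsal control. Sox2, which maintains neural progenitors, was at 26.1, 17.8, 10.2 and 21.6 in that order. The mean log2 level of the list, 3.05, was above the 2.54 to 2.72 of the neural epithelium libraries by less than the neuron list was, whose values were 2.43 here against 1.28 to 1.61. No shift was removed from these means, and over all genes they were 1.01 here against 0.59 to 0.76. Means over all genes were thus higher here as well, and the part of this in the progenitor mean was not tested. Median log2 differences of the progenitor list, shift removed, were 0.55 against lateral prominence and 0.03 against the library titled central. Against the library titled dorsal control the median was 0.21. Over all genes these medians were -0.31, -0.38 and -0.31, and they also move with the number of genes at the floor. Of 31 cell division genes, 0 were counted and 6 reached a level of 5.

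Of 27 Notch and proneural genes 9 reached a level of 5 and 0 were counted, where 17.4% over all genes were higher. Hes5, the main Notch target in neural progenitors, was at 27.9 in the library labelled medial nasal prominence and 15.1 in the library titled dorsal control, with 2.02 in lateral prominence and 1.85 in the library titled central. The receptor Notch1 was at 49.8, with 29.3 in the library titled dorsal control, 12.5 in lateral prominence and 12.1 in the library titled central. The ligand Dll1 was at 20.6, 14.5, 7.57 and 5.33 in the same order of libraries. In each of these 3 genes the library titled dorsal control was second. Neurog2, the proneural factor of the dorsal side, was at 6.36 in the library titled central and at the floor in the other 3.

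Of 16 hedgehog pathway genes 0 were counted, but only 2 were at a level of 5 here and 1 in all 3 neural epithelium libraries. Shh, the ligand made by the ventral forebrain, was at 11.6 in the library labelled medial nasal prominence, 12.4 in the library titled dorsal control, 7.04 in the library titled central and the floor in lateral prominence. Its receptor and target Ptch1 was at 31.4, 27.4, 11.9 and 5.85 in that order. The repressor Gli3 was at 1.49 in the library labelled medial nasal prominence and 1.37 in the library titled dorsal control, against 6.85 in lateral prominence and 6.37 in the library titled central. With the shift removed, Shh and Ptch1 were within 2-fold of both titled libraries and at least 2-fold above lateral prominence. Gli3 was within 2-fold of the library titled dorsal control and at least 2-fold below lateral prominence and the library titled central.

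The library labelled medial nasal prominence and the library titled dorsal control shared the low levels of dorsal genes. Pax6 was at 1.51 in the library labelled medial nasal prominence and the floor in the library titled dorsal control, against 43.8 in lateral prominence and 66.6 in the library titled central. Emx2 was at the floor in the first 2 and at 11.1 and 14.4 in the others. Otx1, a factor of anterior brain, was at 1.12 and 1.37, against 12.3 and 29.0. Since 1 of the 3 libraries was as low, 0 of 21 genes of the cortex and dorsal telencephalon list counted as lower. Without the library titled dorsal control 3 did. The list mean was 0.88, against 0.77 in the library titled dorsal control, 1.61 in lateral prominence and 2.31 in the library titled central.

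Across the genome the library titled dorsal control was also the nearest. Taken pair by pair, 469 of the 1654 genes were higher than in it (28.4%), against 776 for lateral prominence (46.9%) and 788 for the library titled central (47.6%). Lower were 296 of 958 genes (30.9%), 205 of 545 (37.6%) and 235 of 519 (45.3%) in the same order. Of genes at a level of at least 5 in either library of a pair, 61.0% of 1961 were within 2-fold of it, against 46.9% of 1846 for lateral prominence and 45.2% of 1867 for the library titled central. A gene was said to stand with 1 library when it was within 2-fold of that library and at least 2-fold from the other 2 in the same direction. A level of at least 5 was asked on the higher side, and the 3 comparisons share the library labelled medial nasal prominence. Of 2196 genes at a level of 5 or more in at least 1 of the 4 libraries, 312 stood with the library titled dorsal control, 281 of them on the higher side. There were 72 with lateral prominence and 49 with the library titled central. The libraries also differed in how many genes were at the floor. Of genes with a shared lowest value, 54.3% were at it in the library labelled medial nasal prominence, 63.8% in the library titled dorsal control and 72.4% in each of the other 2. The part of this in the counts was not tested.

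Most of the genes standing with lateral prominence were in none of the brain lists. A few regional genes, picked after their values were seen, follow. Meis2, a homeodomain factor of the lateral eminence and striatum, was at 63.5 in the library labelled medial nasal prominence and 92.4 in lateral prominence, against 9.78 in the library titled central and 8.54 in the library titled dorsal control. Sfrp1, a secreted Wnt antagonist, was at 7.79 and 9.55, against 2.14 and 1.43. Dlx6, described above, stood with it too. Pou3f3, a POU factor of the forebrain, was at 15.6 and 16.5, with 1.41 in the library titled dorsal control, but its 7.21 in the library titled central was within 2-fold once the shift was removed.

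Other genes parted the library labelled medial nasal prominence from the library titled dorsal control. Fgf18, a signal of the rostral midline, was at 13.8 in the latter and at the floor in the other 3. Zic1 and Zic4, zinc finger factors of the septum and midline, were at 61.3 and 19.7 there, with 19.99 and 4.36 for the library labelled medial nasal prominence. Slit2, an axon repellent of the midline, was at 30.5 against 7.26. Vax1, a factor of preoptic area and optic stalk, was at 12.4 against 3.75, and Six3, a factor of the rostral forebrain, at 66.1 against 15.7. These 6 genes and Nkx2-1 were higher in the library titled dorsal control, while Dlx, Lhx6, Lhx8, Gsx2, Sp9 and both Gad genes were lower in it.

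The remaining brain lists were as follows. Asb4, an ankyrin repeat protein of the developing hypothalamus, was at 38.7 against 3.69 in lateral prominence, 1.25 in the library titled central and 9.19 in the library titled dorsal control, a fold of 3.31. It was the 1 higher gene among 21 measured hypothalamic genes. Only 3 of the 21 reached a level of 5 in the library labelled medial nasal prominence. Fezf1, a zinc finger factor of the forebrain, was the 1 lower, at 3.75 against 10.6, 8.63 and 6.85, a fold of 2.32. Fezf1 was also the 1 gene of the 21 at that level in all 3 neural epithelium libraries. Against the shares over all genes, 17.4% higher and 17% lower, these are few genes. In the deposited values, without removal of the shift, Fezf1 was lower by less than 2-fold (log2 difference -0.87) and lost its call. The hypothalamic genes Rax, Six6, Nkx2-2 and Nkx2-4 were at the floor in all 4 libraries. The list mean was 0.97 in the library labelled medial nasal prominence and 1.25 in the library titled dorsal control.

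In the whole forebrain list of 23 genes, 2 of the 13 at a level of 5 were higher and 1 of the 8 at that level in all 3 others, Fezf1 again, was lower. Both shares are near the 17.4% and 17% over all genes. Pou3f4, a POU factor of ventral forebrain, was at 5.47 against 1.11, 1.22 and 1.0, a fold of 3.06. Pou3f1, another, was at 9.08 against 1.0, 1.07 and 3.15, a fold of 2.26. The thalamus, midbrain, optic vesicle, ventral neural tube and hindbrain lists gave no counted gene. They could give few: 2 of 18, 2 of 19, 1 of 11, 5 of 15 and 0 of 4 measured genes were at a level of 5 in the library labelled medial nasal prominence.

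**Figure D3:**
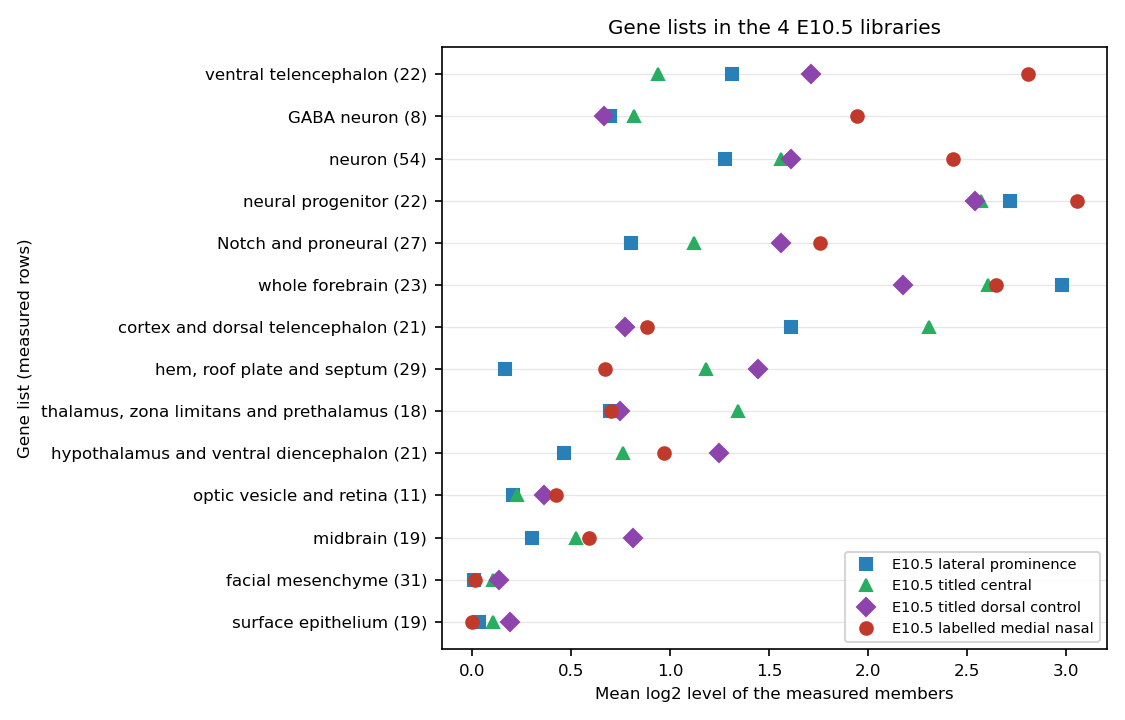
Mean log2 level (horizontal axis, 0 is the floor) of 14 gene lists in the 4 E10.5 libraries; each marker is 1 library and the number of measured rows is in brackets. The library labelled medial nasal prominence is highest for ventral telencephalon (2.80), GABA neuron (1.94) and neuron (2.43). It is also highest for neural progenitor (3.05), Notch and proneural (1.76), and optic vesicle and retina (0.42). Over all genes, not plotted, it is highest too, at 1.01 against 0.59 to 0.76. It lies at 0.02 and 0.00 for facial mesenchyme and surface epithelium.

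Dlx1, Dlx2, Dlx5, Lhx6, Lhx8 and the Gad genes were not restricted to brain in this series. Gad2 was at 8.61 in E9.5 epidermal ectoderm and 7.14 in the olfactory pit, and Gad1 was at 3.35 in E9.5 epidermal ectoderm. Lhx6 was at 9.42 in the E10.5 maxillary arch, near the 10.4 of the library labelled medial nasal prominence. Lhx8 was at 17.3 in the E9.5 maxillary arch, as in the library labelled medial nasal prominence, and Dlx2 was at 21.8 there against 21.2. Dlx5 was higher in 4 other libraries, up to 63.9 in E9.5 epidermal ectoderm. Gsx2 was above the floor in the library labelled medial nasal prominence and lateral prominence alone, and Sp9 in the library labelled medial nasal prominence and E8.5 caudal brain (4.02). Facial mesenchyme genes, high in the arches with list means of 1.76 to 2.02, were at 0.02 in the library labelled medial nasal prominence.

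Likeness over many genes was described by Spearman's rank correlation across genes of log2 values centred on their mean over the 16 libraries. Genes are not independent replicates, all values share the division by the gene median and the depth of each library, and no p is given. Over the 7082 genes with no shared lowest value, it was 0.38 with the library titled dorsal control, 0.27 with E9.5 epidermal ectoderm, 0.18 with the E9.5 mandibular arch, 0.11 with the library titled central and 0.09 with lateral prominence. Over the genes of the lists it was 0.63, -0.24, -0.27, 0.39 and 0.56 in that order. Lateral prominence thus had a low correlation by the first measure and one near the highest by the other. The lowest correlation was with the library labelled lateral nasal prominence, -0.43 and -0.45.

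**Figure D4:**
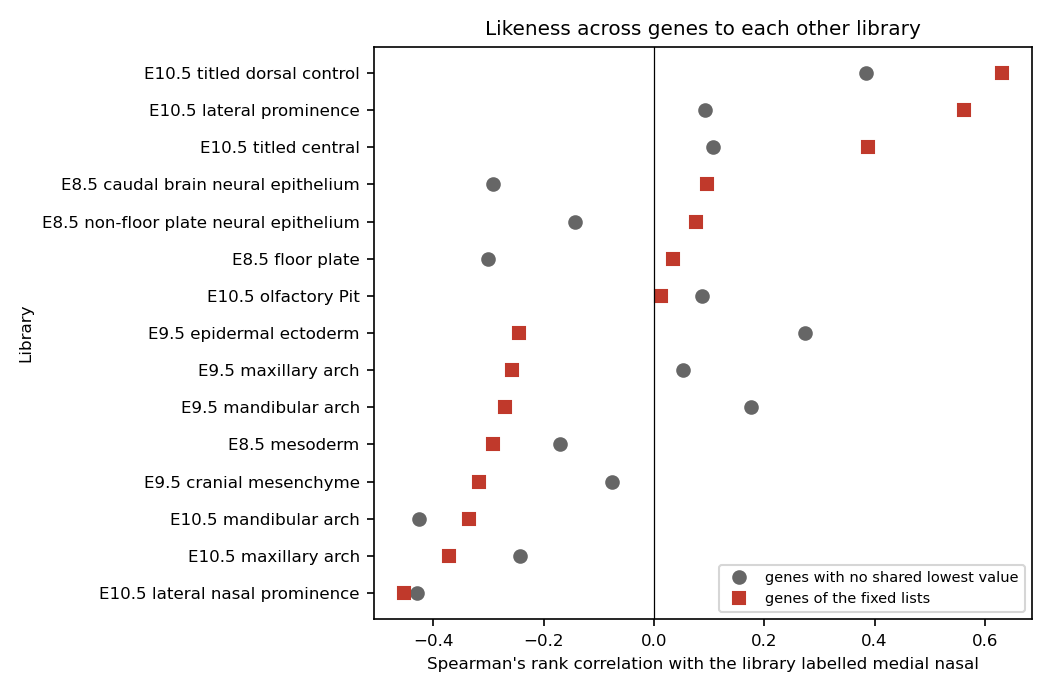
Spearman's rank correlation across genes between the library labelled medial nasal prominence and each of the 15 other libraries (vertical axis), for genes with no shared lowest value (circles) and for genes of the lists (squares). The library titled dorsal control is first by both, at 0.38 and 0.63.

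The largest folds were mostly not in brain genes. First was AL672259.2, a gene known here by a clone name only, at 596 against the floor in all 3 and at least 408-fold. Mir1895 was next, at least 19.4-fold. Then came the replication-dependent histone genes Hist3h2a (15.6-fold) and Hist1h4j (13.6-fold), whose messages end in a stem-loop in place of a poly(A) tail. The symbol Hist1h4j stands on 2 counted rows, and the other row was 5.89-fold higher. AC163282.2 (10.3-fold), Hist2h3c2 (9.33-fold), Hist1h2bj (9.10-fold), AL593853.1 (8.94-fold), Tmem242 (8.30-fold), Gm24620 (7.80-fold), Hist1h4a (7.59-fold) and mmu-mir-715 (7.36-fold) followed before Lhx6. Gm12895 and Gm12896 were at least 6.75-fold and at least 6.69-fold higher. Of the 53 histone cluster genes at a level of 5 or more, 46 were higher (86.8%). Reads of near-identical histone copies may have been split between them by the counting, so single histone genes are uncertain.

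The median level over histone genes reached 21.7 in the library labelled medial nasal prominence, against 2.75 in lateral prominence, 2.52 in the library titled central and 4.46 in the library titled dorsal control. The median was the highest of the 16, ahead of 19.3 in the E9.5 mandibular arch. Outside the histone clusters, 185 of 1390 protein-coding genes were higher (13.3%) and 28 of 193 were lower. The 7 ventral telencephalon, 9 neuron and 2 GABA genes counted as higher are protein-coding and not histone genes, so they fall among these 185 by class alone. The other higher genes were 31 non-coding RNAs, small RNAs and pseudogenes and 26 that the annotation used here did not hold. The part of the histone and small RNA difference in the other counts was not tested.

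Transcript length moved with the difference from the libraries titled central and dorsal control. Against lateral prominence the shortest class was below the middle classes, which reached 0.12. Protein-coding genes counted as higher had a median length of 2381 bases for the longest transcript, against 3182 for those that could have been counted. Among genes with no shared lowest value, transcripts up to 1000 bases had median log2 differences of -0.05 against lateral prominence, 0.29 against the library titled central and 0.33 against the library titled dorsal control. Transcripts over 6000 bases had -0.12, -0.21 and -0.18. The ventral telencephalon list had a median length of 2670 bases and the neuron list 3763. The part of length in any count was not tested.

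**Figure D5:**
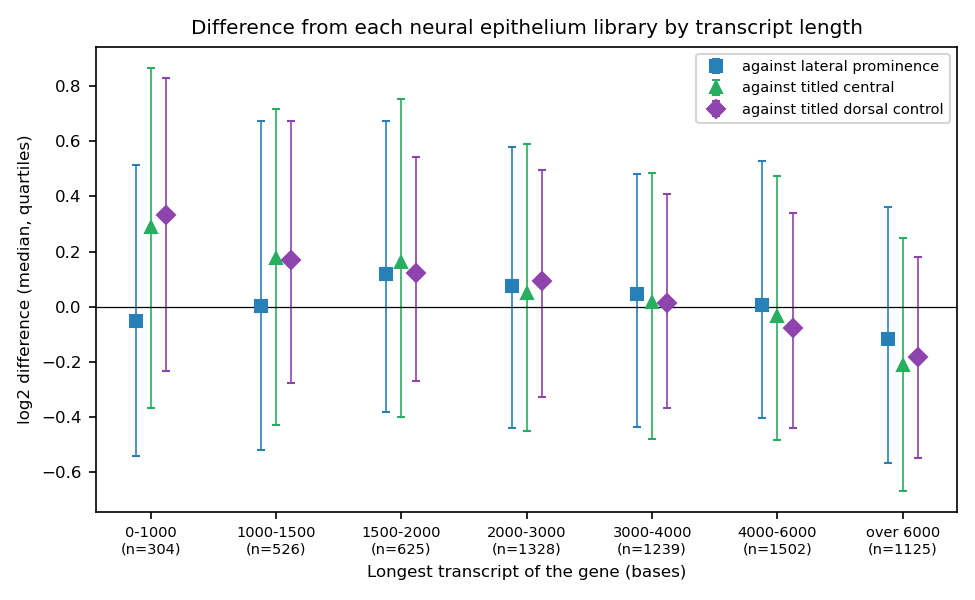
Median log2 difference (shift removed) between the library labelled medial nasal prominence and each neural epithelium library, by longest transcript of protein-coding genes with no shared lowest value; bars span the quartiles and n is the number of genes. Against the libraries titled central and dorsal control the median goes from 0.29 and 0.33 in the shortest class to -0.21 and -0.18 in the longest.

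The 41 lower genes held few regional genes. Gm23935 and CT030226.1, at the floor in the library labelled medial nasal prominence, were at least 118-fold and at least 101-fold lower. Arhgap21, a GTPase-activating protein, was at the floor against 20.9, 23.5 and 23.8, at least 28.3-fold lower, and Zc3h7a, a zinc finger protein, at the floor against 7.83, 7.87 and 8.41, at least 10.6-fold. The 3 neural epithelium libraries were close to each other in both of these genes. Gm10925, Gm22888, Gm10796 and mmu-mir-297a-2 were 5.59, 5.10, 4.95 and 4.28-fold lower.

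Dmd, the dystrophin gene, was at 3.81 against 11.1, 13.4 and 19.2 (3.94-fold), and Aifm2, an oxidoreductase that limits ferroptosis, at 4.51 against 14.8, 11.9 and 18.3 (3.84-fold). Zbtb20, a repressor of the hippocampal primordium, was at 5.0 against 18.8, 12.1 and 28.1 (3.52-fold). Klf13 (3.47-fold), Gm11407 (2.96-fold), Ncrna00085 (2.95-fold) and Slc6a20b (2.90-fold) completed the 15 largest. Fezf1 was the 1 of the 41 in a brain region list. All 41 had levels of at least 5 in each neural epithelium library, as the rule required.

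At the edge of the rule, Fbrs, H2afx and Crebzf were higher by 2.005, 2.005 and 2.010-fold and were counted, while Fopnl, Limch1 and Ints5 were left out at 1.998, 1.997 and 1.996-fold. Fgd4, Gm10801 and Iqck were counted as lower at 2.01, 2.02 and 2.03-fold, and AC119205.1, Fhl1 and Slc22a8 were not at 1.94, 1.90 and 1.87-fold. By level, Sema6c, Akt1s1 and Thap7 entered at 5.02 to 5.03, and Nicn1 and Rpl37a stayed out at 4.97 and 4.96. On the lower side AL929524.1, Sobp and Tm6sf1 entered at 5.08 to 5.29, and Ccdc88a, Rp9 and Tmem230 stayed out at 4.78 to 4.87.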

How the data were processed

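RNA of each region was isolated with the ZR MicroPrep kit and sequenced on an Illumina HiSeq, per the labels' protocols. The submitters' processing notes name Bowtie, TopHat, TopHat2, Cufflinks and the build mm9; versions, annotation and the unit before division were not stated. The deposited values are a ratio: the authors divided each of the 15876 genes by its median over the 16 libraries, as the values show. In 8794 genes at least 2 libraries share the lowest value (relative tolerance 1e-06).

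Levels, shifts (medians over the 7082 other genes) and counts were computed in Python 3.11.15 with pandas 2.3.3 and checked on simulated data. Lengths and gene types are from GENCODE M21, which held 15057 genes by identifier or symbol. The 25 lists held 514 genes, 429 of them measured. The members and lists were chosen with earlier results of these data known. Named were the 15 largest folds in each direction, counted list members (up to 6 a list), set markers and the 3 genes at each side of a threshold. Some genes are not reported here.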

Additional observations from a re-analysis of the deposited data

How the results depend on the processing

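Of 48 named counted genes, 47 remained counted in the deposited values (Fezf1 did not), 33 at a minimum level of 10 and 38 at 3-fold. All 48 remained with the shift taken from genes at a level of at least 5 in all 4 libraries. None changed direction. The other settings only loosen the rule or use fewer genes or libraries. A counted gene that could be tested there could not lose its call, so those settings are no check on the named genes. Higher and lower counts, 288 and 41, were 526 and 19 in the deposited values without removal of the shift, 435 and 91 at a minimum level of 3, 145 and 16 at 10, 441 and 210 with no minimum, 104 and 12 at 3-fold, and 674 and 248 beyond the mean of the 3. At 1.5-fold 540 genes were higher. With only genes of no shared lowest value 168 were higher, and 0 of the ventral telencephalon and GABA lists and 1 of the neuron list, since those genes mostly share a floor. With the minimum asked of 1 of the 3 libraries 88 were lower. In protein-coding genes outside the histone clusters, a setting chosen after seeing the data, 185 were higher. Leaving out each neural epithelium library in turn gave 329 to 576 higher and 54 to 93 lower genes.

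The rank correlation with lateral prominence, the library titled central and the library titled dorsal control, 0.09, 0.11 and 0.38, was -0.10, -0.12 and 0.32 when centred on the 8 E10.5 libraries, 0.27, 0.25 and 0.49 over genes with a 5-fold range, and 0.56, 0.39 and 0.63 over list genes, chosen after seeing the data. The causes were not tested. No paired analysis was possible because each label has 1 library and no replicate number. Single libraries, unknown depth and the floor limit every value.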

Other observations

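A Y-linked gene differed between the libraries: Eif2s3y reached 11.98 in the library labelled medial nasal prominence and 6.55 in the library titled central. It was at the floor in lateral prominence and the library titled dorsal control. Xist, on the X chromosome, was at 32.8 in the library labelled medial nasal prominence and 30.1 in the library titled central. In lateral prominence and the library titled dorsal control Xist was at 50.6 and 83.4. The sex of the embryos in each library is not labelled. Nnat, an imprinted membrane protein gene, and Blcap, which surrounds it, reached levels of 32.5 and 20.6, respectively, in the library labelled medial nasal prominence and 16.5 and 10.4 in the library titled dorsal control, against 1.11 to 2.57 in the other 2. The axon guidance genes Robo2 and Epha3 were higher in lateral prominence, at 12.7 and 13.8, than in the library labelled medial nasal prominence, at 2.82 and 4.96. These genes were chosen after their values were seen.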
